A study of Mus musculus with 12 samples.

Results

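The auxiliary subunits of voltage-gated calcium channels were examined as a set of 10 genes: the beta subunit genes Cacnb1, Cacnb2, Cacnb3 and Cacnb4, the alpha2delta subunit genes Cacna2d1, Cacna2d2 and Cacna2d3, and the gamma subunit genes Cacng4, Cacng5 and Cacng7. The genes were chosen by name. All 10 were present in the OPC table of 30165 genes and in the neuron table of 17918 genes.

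The study took oligodendrocyte precursor cells (OPCs) and neurons from the cortex of dKO mice (double knockout) and of control mice (ctl), with 3 libraries per group, 12 in all. Each library pooled the cells of 2 mice. The dKO mice carried NG2-CreERT2, a tamoxifen-dependent Cre recombinase driven from the locus of NG2, together with floxed alleles of Cacna1c and Cacna1d, which encode the pore subunits Cav1.2 and Cav1.3. The ctl mice are labelled WT, and whether they carried the Cre or the floxed alleles is not stated in the sources used here. According to the methods, mice of this design received 100 mg/kg tamoxifen on postnatal days 7 and 8. NG2 is also made by pericytes, so the recombinase is not limited to OPCs by its promoter alone. The neurons were isolated by removing other cells and were not the cells at which the recombinase was aimed. In these bulk samples, fewer cells of a type and less RNA per cell cannot be told apart. Where nothing states which animals gave which library, the p-values measure the spread between these libraries.

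A voltage-gated calcium channel has a pore-forming alpha1 subunit, which opens on depolarisation and selects calcium, and auxiliary subunits that set how many channels reach the membrane and how they gate. Beta subunits are cytoplasmic and bind the linker between the first and second repeats of the high-voltage-activated pore subunits. Alpha2delta subunits sit on the outer face of the membrane, and those encoded by Cacna2d1 and Cacna2d2 bind gabapentin and pregabalin. Most gamma subunits of the brain are better known as transmembrane AMPA receptor regulatory proteins (TARPs), which carry AMPA receptors to the synapse and slow or shape their currents. Cells of the oligodendrocyte lineage receive synapses from axons while they are OPCs, and both AMPA receptors and voltage-gated calcium channels have been described in them.

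Alternative start sites bore on the neuron values of Cacng5 and Cacnb4, because the neuron table gives an estimated count for each RefSeq transcript. Of the 66 transcripts of the 10 genes, 23 had a position in GENCODE M21, and the start of these was matched to the RefSeq promoter windows of GRCm38.p6, which span 250 bases before and 50 bases after a start. The other 43, with 79.7% of the counts, had no position and could not be matched. Of the 10 genes, 9 had at least 1 window, with 15 windows in all. Cacng4 had none. The windows shown are the distal and the proximal start of Cacng5, between which its neuron transcripts were divided, and the internal start of Cacnb4, at which its leading transcript began. Capitals mark the GC box GGGCGG on either strand, the letters bound by factors of the Sp1 family, which was found in 35.7% of the 32851 windows of the table.
Cacng5 distal, chr11:107915006-107915305, minus strand: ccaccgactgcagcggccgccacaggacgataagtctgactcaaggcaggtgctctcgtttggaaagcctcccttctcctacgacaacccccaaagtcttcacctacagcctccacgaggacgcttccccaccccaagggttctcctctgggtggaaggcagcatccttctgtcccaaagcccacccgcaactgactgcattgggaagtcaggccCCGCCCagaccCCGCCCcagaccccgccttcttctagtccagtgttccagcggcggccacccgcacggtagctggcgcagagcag
Cacng5 proximal, chr11:107911313-107911612, minus strand: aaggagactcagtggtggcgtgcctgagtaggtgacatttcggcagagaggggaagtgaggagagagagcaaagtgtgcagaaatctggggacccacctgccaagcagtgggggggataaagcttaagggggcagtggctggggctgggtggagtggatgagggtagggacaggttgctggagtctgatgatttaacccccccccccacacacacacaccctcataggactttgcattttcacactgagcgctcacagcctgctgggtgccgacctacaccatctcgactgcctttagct
Cacnb4 internal, chr2:52558562-52558861, minus strand: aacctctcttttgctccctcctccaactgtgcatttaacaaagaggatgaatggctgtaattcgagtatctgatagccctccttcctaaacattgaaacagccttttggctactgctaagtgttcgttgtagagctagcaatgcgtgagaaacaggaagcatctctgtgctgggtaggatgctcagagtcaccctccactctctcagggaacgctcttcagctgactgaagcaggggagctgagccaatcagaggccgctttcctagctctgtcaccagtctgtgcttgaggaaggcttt

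The windows differed in base composition. The distal Cacng5 window had 63.3% G and C, 17 CpG dinucleotides and 2 GC boxes, and the proximal window had 57.3%, 5 and 0. The internal Cacnb4 window had 49.7% G and C, 5 CpG and 0 GC boxes. Over all windows the medians were 52.7% G and C and 7 CpG. None of these 3 windows held TATAAA, which was found in 13.6% of all windows on either strand.

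The libraries held 14935963 to 19812274 counts in OPCs and 15052892 to 16344601 estimated counts in neurons, and the biological coefficient of variation was 20.5% and 27.7%. Over all genes, edgeR's quasi-likelihood test called 1 gene of 17364 at an adjusted p under 0.05 in OPCs (0.00576%) and 0 of 14352 in neurons (0.00%), while DESeq2 called 299 and 88. The OPC libraries also held mature oligodendrocyte RNA, with 10 oligodendrocyte markers such as Mbp and Mog summing to 50410 to 79090 CPM (counts scaled to the library total) against 1525 to 2681 CPM for 10 OPC markers such as Pdgfra and Cspg4. The neuron libraries held 611 to 1449 CPM of 10 neuron markers such as Snap25 and Rbfox3 beside 12270 to 25790 CPM of 10 endothelial markers such as Cldn5. None of these markers was at 0 in every library of a cell type. Some libraries stood apart by sex-linked genes. In OPCs, dKO replicate 2 had 757 CPM of Xist RNA, against at most 1.14 CPM in the others, and it alone had 0 counts of Y-linked genes. In neurons, ctl replicate 1 and dKO replicate 1 alone were high in Y-linked counts (390 and 347 CPM, against at most 3.73 CPM in the others). For the genes that single libraries moved most, the lowest and highest log2 fold changes over the fits that each left out 1 library are given.

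The targeted genes were read first, as a check of the labels. Normalized counts of Cacna1c were 373, 411 and 439 in ctl and 252, 337 and 312 in dKO OPCs. The groups did not overlap, and the log2 fold change was -0.44 ± 0.15 (SE, n = 3 libraries per group; edgeR adjusted p = 0.349). It ran from -0.53 without dKO replicate 2 to -0.33 without dKO replicate 1, and its unadjusted p, under 0.05 with all libraries, was no longer so without ctl replicate 3 or dKO replicate 1. Cacna1d gave 251, 191 and 255 in ctl and 92.8, 153 and 232 in dKO, and these groups overlapped (log2 fold change -0.55 ± 0.31; edgeR adjusted p = 0.531). Its value ran from -0.93 without dKO replicate 3 to -0.27 without dKO replicate 1, and its unadjusted p was under 0.05 without dKO replicate 3 and with the replicate number as a block (-0.61). In neurons both genes overlapped between groups. Counts over a whole gene include exons outside the deleted parts, so they show the targeted deletion only in part.

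The deposited OPC positions of the genes that the results turn on are chromosome 2, 52318332 to 52566843, minus strand for Cacnb4 (ENSMUSG00000017412), and chromosome 11, 107623183 to 107685383, minus strand for Cacng4 (ENSMUSG00000020723). Cacng7 (ENSMUSG00000069806) lies on chromosome 7, 3381471 to 3416737, plus strand, and Cacna2d1 (ENSMUSG00000040118) on chromosome 5, 16139689 to 16579509, plus strand. The submitters' notes name mm39 for these positions, another build than that of the printed windows, and all 10 genes are annotated as protein coding.

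Levels were compared between genes per length, as FPKM (fragments scaled by transcript length and by library depth). In OPCs the gamma subunit gene Cacng7, which encodes a type II TARP, led the set with 34.7 ± 6.08 FPKM (mean ± SD over 6 libraries), above 93.3% of the genes tested. Its lowest library (26.5 FPKM) lay above the highest library of any other member. Cacnb4, which encodes the beta subunit mutated in the lethargic mouse, followed with 8.05 ± 1.505 FPKM, and Cacng4, which encodes a type I TARP, had 7.67 ± 3.86 FPKM. The ranges of Cacnb4 and Cacng4 overlapped, with Cacnb4 the higher in 4 of 6 libraries. Cacnb1, Cacna2d2, Cacna2d1 and Cacnb3 formed the next group at 2.10 to 2.36 FPKM, and neighbours in that order did not differ beyond their spread. Cacng5, Cacna2d3 and Cacnb2 lay below them at 0.812, 0.663 and 0.555 FPKM, again with overlapping ranges.

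The order was different in the neuron libraries. Cacna2d1, the gene of the main gabapentin-binding subunit, led with 33.2 ± 3.81 FPKM, and Cacng5, another type II TARP gene, came next with 17.4 ± 4.36 FPKM, and their ranges over 6 libraries did not overlap. Cacnb3, Cacnb4, Cacng4, Cacna2d3 and Cacnb1 followed at 6.38, 4.28, 2.90, 2.30 and 1.73 FPKM, each overlapping with the next. Cacnb2, Cacna2d2 and Cacng7 lay far below, at 0.185, 0.152 and 0.143 FPKM, and the mean of Cacnb1 was 9.36-fold that of Cacnb2, with ranges apart. The last 3 overlapped and their order is not resolved. Cacng7, which led in OPCs, was thus among the 3 lowest of the set in neurons, with estimated counts of at most 9 in a library, whereas Cacna2d1 ranked 6 of 10 in OPCs. OPC reads were counted per gene and neuron reads estimated per transcript, so these orders stand side by side and no level was tested between cell types. The levels are those of mixed libraries. Endothelial markers exceeded neuron markers in the neuron libraries, and oligodendrocyte markers exceeded OPC markers in the OPC libraries. Which cells gave each level was not tested.

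**Figure D1:**
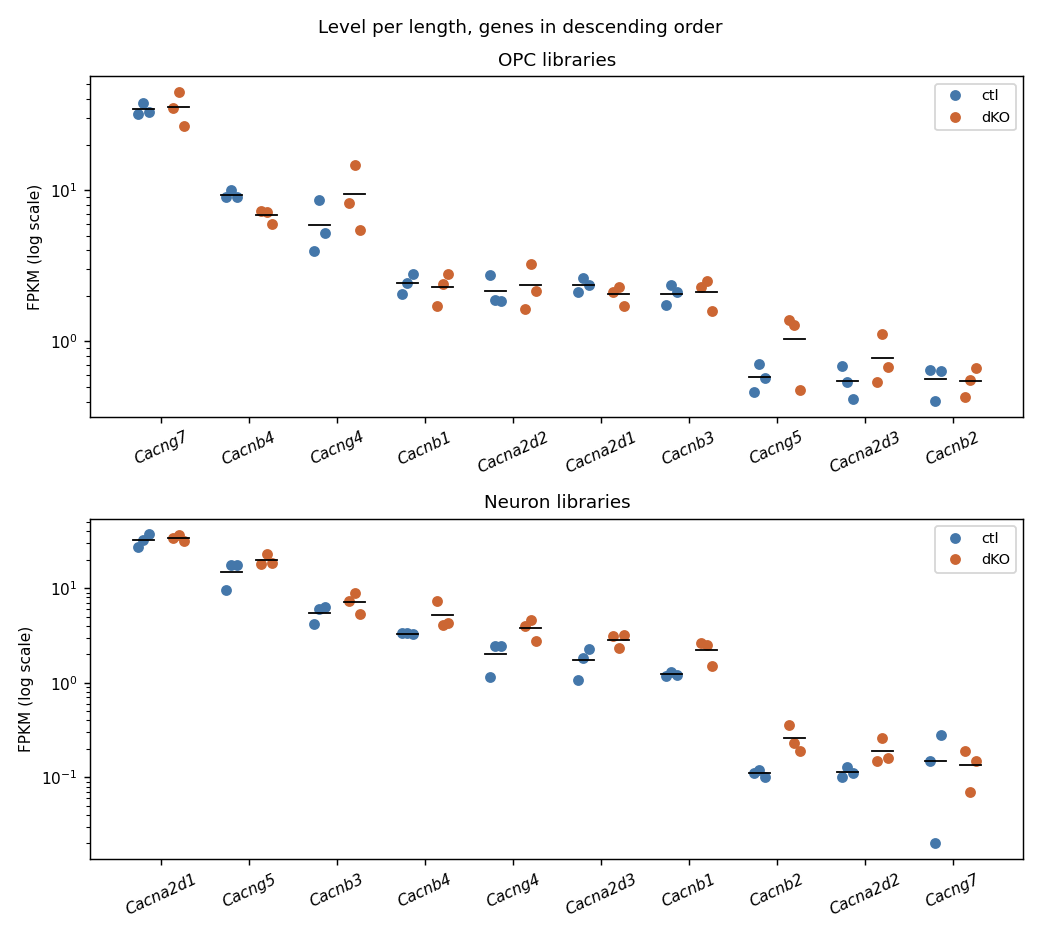
FPKM (log axis) of the 10 auxiliary subunit genes in each OPC library (top) and neuron library (bottom), genes in descending order of the mean over 6 libraries. Points are single libraries and horizontal lines are means of 3 libraries. Cacng7 leads in OPCs at 34.7 FPKM and is among the 3 lowest, overlapping genes in neurons at 0.143 FPKM, and Cacna2d1 leads in neurons at 33.2 FPKM.

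On average over the ctl libraries, a different gene led the beta class and the gamma class per length in each cell type. Of the summed beta FPKM in ctl OPCs, Cacnb4 gave 64.9% ± 2.65 (SD, n = 3), against 33.0% ± 4.58 in ctl neurons, where Cacnb3 gave 53.8% ± 5.84. In dKO neurons Cacnb3 gave 48.5% ± 7.76 and Cacnb4 35.0% ± 8.12, and in dKO replicate 1 the genes were level at 41.4% and 41.5%. Of the summed gamma FPKM, Cacng7 gave 84.4% ± 3.81 in ctl OPCs and Cacng5 gave 87.5% ± 0.778 in ctl neurons. The alpha2delta class was split in ctl OPCs between Cacna2d1 (47.2% ± 7.78) and Cacna2d2 (42.1% ± 6.52), whereas Cacna2d1 alone gave 94.7% ± 1.03 in ctl neurons. These shares cover the genes of the set only and, like the levels, are those of mixed libraries.

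**Figure D2:**
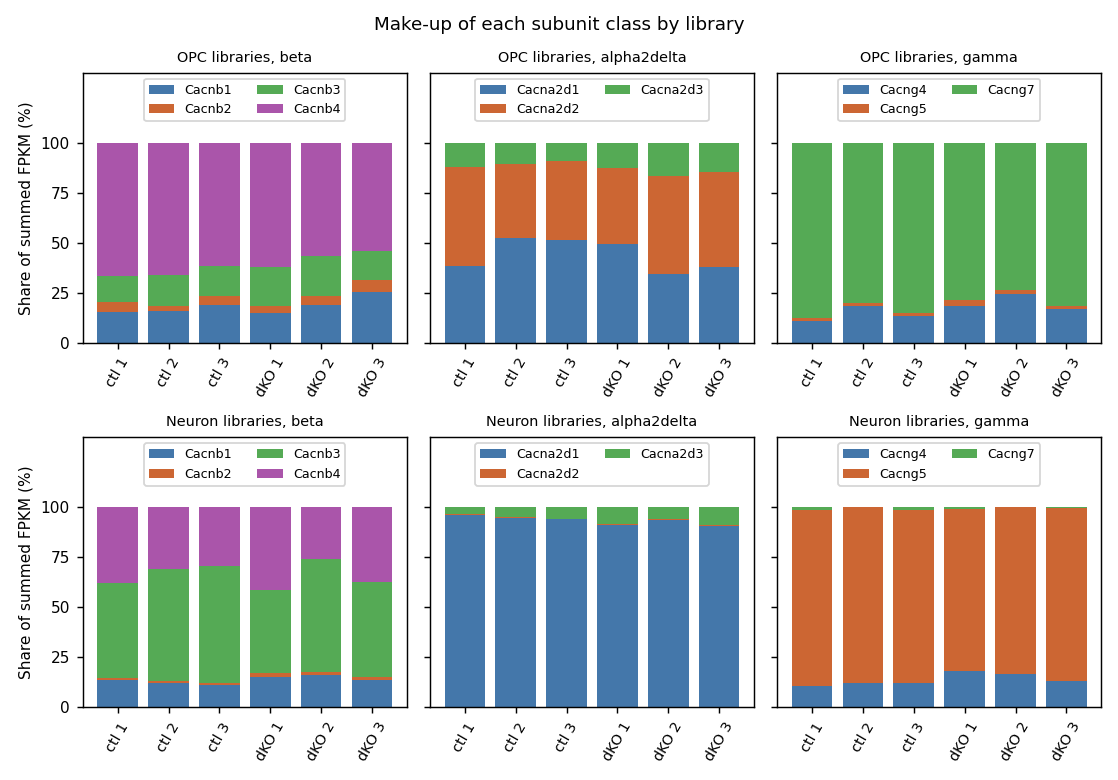
Share of the summed FPKM of each class (percent, vertical axis) held by each gene in every library (horizontal axis), for the beta, alpha2delta and gamma genes in OPCs (top) and neurons (bottom). Cacnb4 and Cacng7 fill most of their classes in OPCs, Cacna2d1 and Cacng5 fill most of theirs in neurons, and the alpha2delta class of OPCs is split.

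In OPCs, all 10 genes passed the filter of a mean normalized count of 10, and dKO was compared with ctl to ask how the auxiliary subunits stood when the pore genes were targeted. At an adjusted p under 0.05, 0 of the 10 were called with either edgeR or DESeq2. At an unadjusted p under 0.05 edgeR called 1 of 10, a gene lower in dKO, where 11.5% of all genes tested were called and 5.27% were called lower. The groups did not overlap for 1 of 10, with dKO below ctl, where this held for 17.0% of all genes in either direction and for 9.55% with dKO below. The log2 fold change was above 0 for 6 of the genes and below 0 for 4, where 50.8% of all genes were above 0, with a median of 0.05 against 0.01 over all genes. The share called was close to that of all genes tested.

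Cacnb4 was the OPC gene that stood below ctl. Its normalized counts were 1424, 1565 and 1413 in ctl and 1138, 1134 and 938 in dKO OPCs. All dKO libraries lay below all ctl libraries. The log2 fold change was -0.45 ± 0.11 (SE, n = 3 per group; 95% confidence interval -0.71 to -0.20), a level of 0.73 times ctl, with an unadjusted p under 0.05 that did not pass adjustment over all genes (edgeR adjusted p = 0.288). Without each library in turn the log2 fold change lay between -0.50 and -0.38, and without dKO replicate 2, the library with high Xist RNA, it was -0.50. The summed FPKM of the beta genes was 14.4 ± 0.903 in ctl and 11.8 ± 0.830 in dKO (SD), with no overlap. Cacnb4 held most of this sum, so the sum is not a separate result. As a share of that sum, however, Cacnb4 went from 64.9% ± 2.65 to 57.7% ± 4.09 with overlapping libraries.

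The remaining beta genes gave no such separation. Cacnb1, the beta gene of skeletal muscle that is also used in brain, had 136 to 223 normalized counts over the 6 libraries, Cacnb2, the main cardiac beta gene, had 92.9 to 155, and Cacnb3, a widely expressed neuronal beta gene, had 112 to 179. Their log2 fold changes were -0.07, -0.04 and 0.05, and the 95% confidence intervals reached from -0.58 to 0.43, from -0.64 to 0.56 and from -0.47 to 0.57. As folds these intervals run from 0.64 to 1.48 over the 3 genes, and the direction of each turned when single libraries were left out.

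The normalized counts of the alpha2delta genes overlapped between the groups. Cacna2d1 had 469, 569 and 515 normalized counts in ctl and 460, 504 and 374 in dKO OPCs (log2 fold change -0.21 ± 0.15; edgeR adjusted p = 0.598). Cacna2d2, whose loss causes the ducky mouse with ataxia and absence seizures, had 389, 258 and 257 in ctl and 228, 454 and 302 in dKO (0.12 ± 0.27). Cacna2d3 had 106, 82.2 and 63.7 in ctl and 82.1, 173 and 104 in dKO (0.51 ± 0.33). The highest dKO value of both Cacna2d2 and Cacna2d3 came from replicate 2. With single libraries left out, Cacna2d2 ran from -0.19 without dKO replicate 2 to 0.35 without ctl replicate 1, and Cacna2d3 from 0.14 without dKO replicate 2 to 0.72 without dKO replicate 1. As a share of the summed alpha2delta FPKM, Cacna2d3 had 10.7% ± 1.64 in ctl and 14.8% ± 2.19 in dKO (SD, n = 3), with no overlap, and this share was not tested.

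Among the gamma genes, Cacng4 and Cacng5 were higher on average and more variable in dKO OPCs. Cacng4 had 251, 534 and 327 normalized counts in ctl and 510, 925 and 343 in dKO. The highest dKO library was replicate 2, and the groups overlapped (log2 fold change 0.68 ± 0.38; edgeR adjusted p = 0.526). The value ran from 0.21 without that library to 1.04 without ctl replicate 2, and its unadjusted p was under 0.05 without ctl replicate 2, without dKO replicate 3 (0.95), with no filter (0.70) and with the replicate block (0.63). Cacng5 had 31.5, 47.6 and 38.7 in ctl and 91.9, 86.2 and 32.1 in dKO, where replicates 1 and 2 lay above every ctl library and replicate 3 within the ctl range (0.84 ± 0.41; edgeR adjusted p = 0.476). Cacng7 had 1376, 1604 and 1414 in ctl and 1477, 1919 and 1140 in dKO, so that the dKO libraries spanned the ctl libraries on both sides (0.05 ± 0.18; 95% confidence interval -0.36 to 0.46). Cacng5 ran from 0.60 without dKO replicate 1 to 1.18 without dKO replicate 3, with an unadjusted p under 0.05 in the latter fit and with no filter (0.87). Cacng7 ran from -0.16 without dKO replicate 2 to 0.20 without dKO replicate 3.

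Cell type markers also differed between the OPC libraries. The summed OPC markers were 1576, 2460 and 1964 CPM in ctl and 2155, 2681 and 1525 CPM in dKO, and the 3 libraries highest in OPC markers were also the 3 highest in Cacng4, in the same order. The other 3 libraries did not keep that order, since dKO replicate 3 was lowest in OPC markers and had more Cacng4 than ctl replicates 1 and 3. Of the 10 microglia markers, 10 had an unadjusted p under 0.05 and a higher level in dKO OPCs, with sums of 237 to 294 CPM in ctl and 296 to 1040 CPM in dKO. Among the dKO libraries they were highest in replicate 3, which was lowest in Cacng4, Cacng5 and Cacng7. Of the 10 astrocyte markers, 9 did so, with sums of 1138 to 2036 CPM and 1849 to 5666 CPM, the highest in dKO replicate 2. Of the 10 oligodendrocyte markers, 3 were lower in dKO at an unadjusted p under 0.05, and the median log2 fold change of the 10 was -0.42. Their sums overlapped, at 65100 to 74050 CPM in ctl and 79090, 67280 and 50410 CPM in dKO replicates 1, 2 and 3. The lowest library in these sums, dKO replicate 3, was also the lowest in Cacnb4, whereas dKO replicate 1 had the highest sum. The part of these markers in the values of the auxiliary subunits was not tested.

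**Figure D3:**
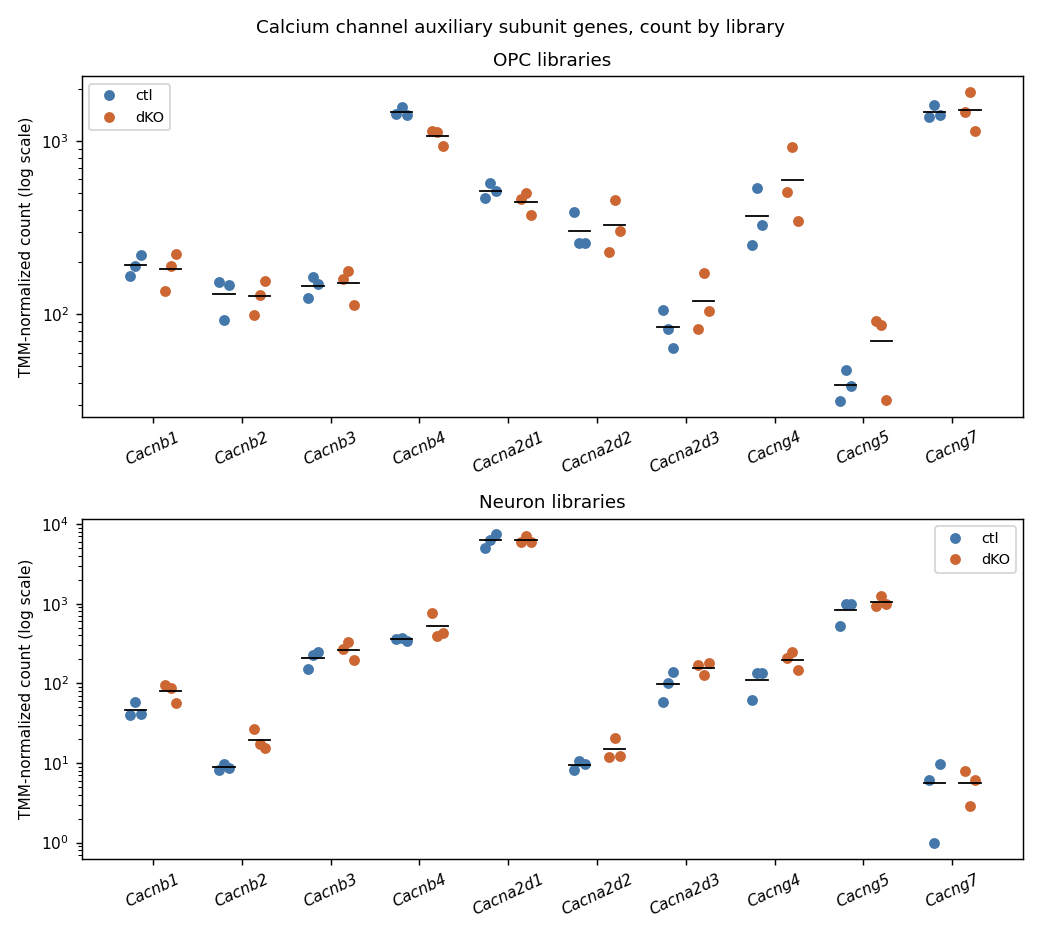
Normalized count (log axis) of the 10 genes in each library of OPCs (top) and neurons (bottom). Points are single libraries and horizontal lines are means of 3 libraries per group. In OPCs the groups are apart for Cacnb4 alone, and in neurons for Cacnb2, Cacnb4, Cacna2d2 and Cacng4.

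In neurons, 9 of the 10 genes passed the filter, and Cacng7 did not, with estimated counts of 6, 1 and 9 in ctl and 8, 3 and 6 in dKO. This comparison asks how neurons stood in mice whose OPCs were the targeted cells. At an adjusted p under 0.05, 0 of the 9 were called with edgeR and with DESeq2. At an unadjusted p under 0.05 edgeR called 1 of 9, a gene higher in dKO, where 9.00% of all genes tested were called and 4.96% were called higher. The log2 fold change was above 0 for 9 of 9, where this held for 51.1% of all genes, and their median was 0.65 against 0.01 over all genes. In normalized counts the groups did not overlap for 4 of the 9, in each case with dKO above ctl, where 15.3% of all genes did not overlap and 7.50% had dKO above. In the deposited FPKM, Cacnb1, Cacna2d3 and Cacng5 were also apart, and the share of all genes apart in FPKM was not computed. Cacnb2 and Cacna2d2, which are among the 4, had ctl means under 10 and passed the filter through their dKO libraries, so their direction follows in part from the filter. The counts of 9 and of 4 include both genes, and the median was the value of Cacna2d2 itself.

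Cacng4 was the neuron gene at an unadjusted p under 0.05. Its normalized counts were 60.9, 133 and 136 in ctl and 206, 244 and 145 in dKO neurons. The dKO libraries lay above the ctl libraries, with dKO replicate 3 close to the ctl maximum, and ctl replicate 1 was far below the other ctl libraries. The log2 fold change was 0.85 ± 0.36 (SE, n = 3 per group; 95% confidence interval 0.02 to 1.68; edgeR adjusted p = 0.548). The unadjusted p was no longer under 0.05 without ctl replicate 1 (0.56), dKO replicate 1 (0.82) or dKO replicate 2 (0.67), or with the replicate block (0.90). The highest value was 1.03 without dKO replicate 3, and it was 0.53 (edgeR adjusted p = 0.809) among the libraries low in Y-linked counts, which leaves 2 per group.

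Cacnb4 had 361, 366 and 344 normalized counts in ctl and 759, 392 and 432 in dKO neurons. The ctl libraries were within a narrow band, all dKO libraries lay above it, and dKO replicate 1 was the highest by far. The log2 fold change was 0.56 ± 0.25 (95% confidence interval -0.01 to 1.14; edgeR adjusted p = 0.557). It ran from 0.21 without dKO replicate 1 to 0.74 without dKO replicate 2, with an unadjusted p under 0.05 without dKO replicate 2, without dKO replicate 3, with no filter and with Y-linked counts as a term, and among the libraries low in Y-linked counts it was also 0.21. In OPCs the same gene was below ctl in dKO. The difference between the cell types was not tested.

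Cacnb2 and Cacna2d2 were rare in neurons. Cacnb2 had 8.13, 9.73 and 8.57 normalized counts in ctl and 26.5, 17.04 and 15.4 in dKO, a log2 fold change of 1.14 ± 0.56 with an interval from -0.14 to 2.43. Cacna2d2 had 8.13, 10.7 and 9.64 in ctl and 11.8, 20.8 and 12.3 in dKO, a log2 fold change of 0.65 with an interval from -0.68 to 1.98. All dKO libraries lay above all ctl libraries for both genes, at counts where a few reads move the value. Cacna2d2 ran from 0.34 without dKO replicate 2 to 0.80 without dKO replicate 1, and Cacnb2 from 0.87 without dKO replicate 1 to 1.29 without dKO replicate 3.

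In normalized counts the 5 remaining genes overlapped between the groups in neurons. In the deposited FPKM, dKO lay above ctl for Cacnb1 (ctl at most 1.31, dKO at least 1.52), Cacna2d3 (2.30 and 2.31) and Cacng5 (17.77 and 17.86). Cacnb1 had 39.6, 58.4 and 40.7 normalized counts in ctl and 95.02, 88.0 and 57.3 in dKO (log2 fold change 0.79), and Cacna2d3 had 57.9, 102 and 137 in ctl and 170, 126 and 178 in dKO (0.67). Cacnb3 and Cacng5 gave 0.33 and 0.34. Without ctl replicate 1 the values were 0.15 for Cacnb3, 0.09 for Cacng5 and 0.40 for Cacna2d3, and the highest were 0.51 without dKO replicate 3 for Cacnb3 and, without ctl replicate 3, 0.49 for Cacng5 and 0.98 for Cacna2d3. Cacnb3 was lowest without dKO replicate 2 (0.14). The unadjusted p was under 0.05 for Cacna2d3 without ctl replicate 3 and for Cacnb1 without dKO replicate 3 (0.98). Cacna2d1, the most abundant, had 5042, 6340 and 7451 in ctl and 6010, 7066 and 5914 in dKO, a log2 fold change of 0.01 with an interval from -0.40 to 0.42. Among the libraries low in Y-linked counts, the log2 fold change stayed above 0 for Cacnb1 (0.55), Cacnb2 (0.81), Cacnb3 (0.14), Cacna2d2 (0.69), Cacna2d3 (0.35) and Cacng5 (0.17), and Cacna2d1 gave -0.09.

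Per length, the class sums in neurons were 10.2 ± 1.16 FPKM in ctl and 14.96 ± 3.24 FPKM in dKO for beta, and 17.2 ± 5.37 and 23.7 ± 3.64 FPKM for gamma (SD, n = 3), both without overlap. The alpha2delta sum overlapped, at 34.2 ± 5.73 and 37.1 ± 2.48 FPKM. Within the alpha2delta class the share of Cacna2d3 was 4.93% ± 1.06 in ctl and 7.80% ± 1.75 in dKO, and within the gamma class that of Cacng4 was 11.6% ± 0.932 and 15.9% ± 2.58, both without overlap. The shares of Cacnb1 (12.2% and 14.8%) and Cacnb2 (1.09% and 1.72%) in the beta class and of Cacna2d2 (0.335% and 0.508%) in the alpha2delta class were also above ctl in all dKO libraries, and those of Cacna2d1 (94.7% and 91.7%) and Cacng5 (87.5% and 83.5%) were below. Shares of a class sum to the whole, so they are not independent of each other, and they were not tested.

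Neuron and endothelial markers also stood apart between the neuron groups. The 10 neuron markers summed to 611 to 794 CPM in ctl and 820 to 1449 CPM in dKO, and the 10 endothelial markers to 22910 to 25790 CPM and 12270 to 21210 CPM. At an unadjusted p under 0.05, 1 neuron marker was higher and 3 endothelial, 2 astrocyte, 1 OPC and 1 fibroblast marker were lower in dKO. Of 7 tested ependymal and choroid markers, 3 were higher and 1 was lower, with sums of 4752 to 9495 CPM in ctl and of 31700, 8731 and 14880 CPM in dKO replicates 1, 2 and 3. The dKO replicate 1 library had the highest sums of neuron and of ependymal and choroid markers, the lowest sum of endothelial markers and the highest Cacnb4 count. The part of these sums in the neuron values was not tested.

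**Figure D4:**
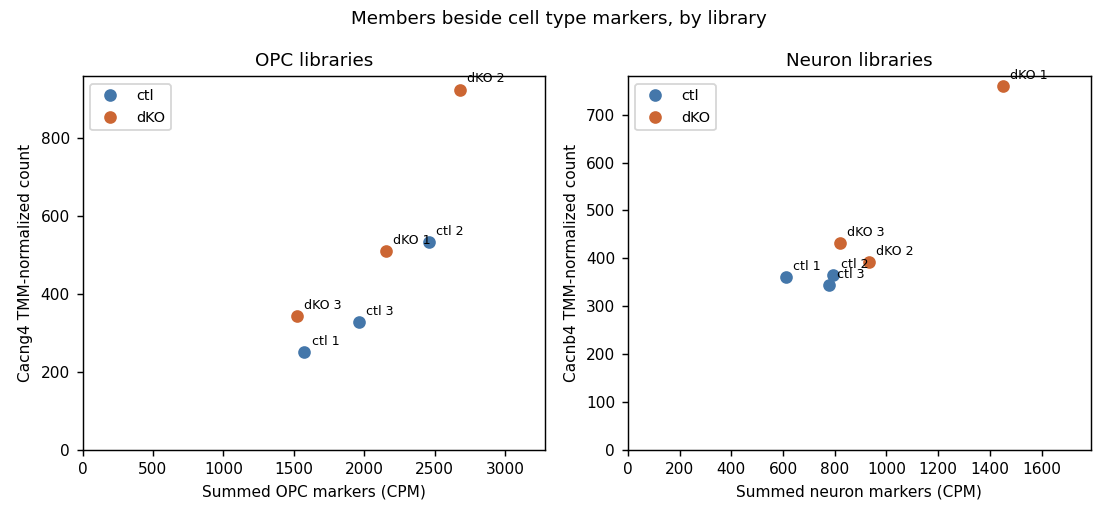
Normalized count of Cacng4 against the summed OPC markers (CPM) in the OPC libraries (left), and of Cacnb4 against the summed neuron markers (CPM) in the neuron libraries (right), each point a library. The 3 OPC libraries highest in markers are highest in Cacng4, the other 3 do not follow that order, and neuron dKO replicate 1 stands apart at 1449 CPM of markers and 759 Cacnb4 counts.

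**Figure D5:**
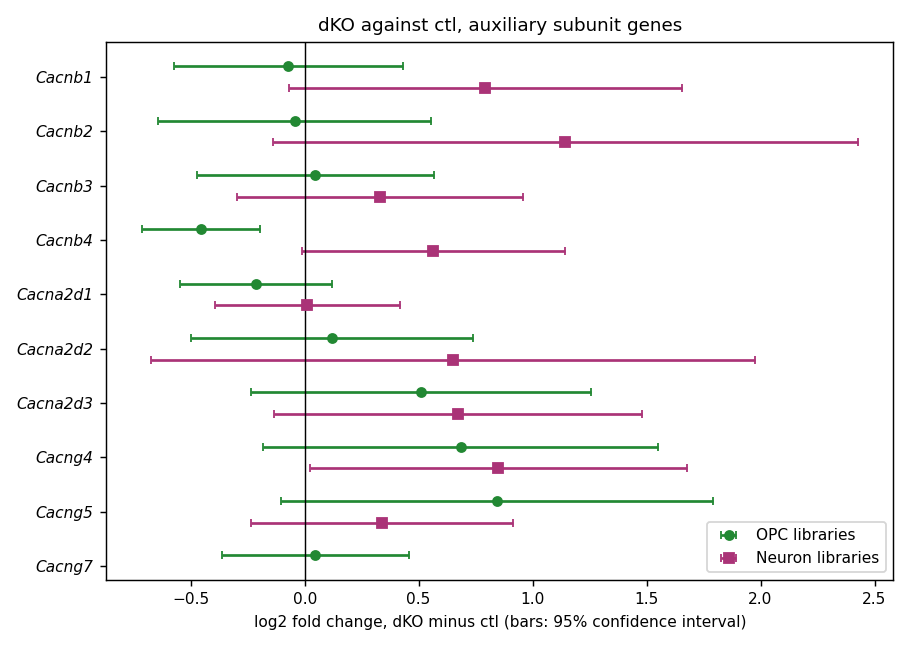
Log2 fold change of dKO against ctl (horizontal axis) with its 95% confidence interval for each gene in OPCs (circles) and neurons (squares). Cacng7 is not drawn for neurons, where it did not pass the filter. The OPC interval of Cacnb4 (-0.71 to -0.20) lies below 0 and the neuron interval of Cacng4 (0.02 to 1.68) above it, and all others include 0.

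The transcript estimates placed the neuron counts of Cacng5 on both of its printed starts. The proximal start held 56.7% of the Cacng5 counts over the 6 libraries and the distal start 42.2%. By library, the proximal share was 33.8%, 36.0% and 58.2% in ctl and 96.0%, 46.7% and 63.7% in dKO. The groups overlapped, and the highest share was that of dKO replicate 1, which had 37.9 estimated counts on the distal start, against at least 322 in the others. For Cacnb4, 5 of 16 transcripts had a position, and 3 of these, with 61.5% of the counts, began at the internal start, with shares of 49.6% to 70.2% by library. A further 2, with 7.56% of the counts, matched no window within 100 bases, and the 11 without a position, with 30.9%, could not be placed. Estimates per transcript of 1 gene share reads, so these shares are less certain than the gene totals.

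Cacna2d1 had 8 transcripts, 1 of which held 89.9% of its neuron counts, with 74.8% to 97.7% by library. A further transcript had 28.3, 23.4 and 27.4 estimated counts in ctl and 85.6, 1300 and 1329 in dKO neurons. Its dKO libraries lay above all ctl libraries, with dKO replicates 2 and 3 far above replicate 1, while the gene total gave a log2 fold change of 0.01. It was singled out after its values were seen, and was not tested.

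Of the 6 auxiliary subunit genes outside the set, 3 were tested in OPCs and 2 in neurons. Cacna2d4, the alpha2delta gene of photoreceptors, had 384, 487 and 421 normalized counts in ctl and 325, 295 and 192 in dKO OPCs. The groups did not overlap (log2 fold change -0.67 ± 0.21; edgeR adjusted p = 0.313). In the deposited coordinates Cacna2d4 (chromosome 6, 119213487 to 119329368, plus strand) lies 39.6 kb from the targeted gene Cacna1c with 0 annotated genes between them. Cacng8, which encodes a type I TARP, had 13.1, 35.7 and 42.8 in ctl and 66.5, 111 and 64.2 in dKO OPCs, again with no overlap (1.41 ± 0.45; edgeR adjusted p = 0.321). It lies 22.5 kb from Cacng7 on chromosome 7, whose own log2 fold change was 0.05. Cacng2, the gene of stargazin, gave 0.82 in OPCs, where it passed the filter through its dKO libraries, and 0.75 in neurons, and Cacng3 gave 1.00 in neurons, all with overlapping groups. In neurons Cacng2 ran from 0.12 without dKO replicate 1 to 1.11 without dKO replicate 3, and Cacng3 from -0.11 without dKO replicate 1 to 2.02 without ctl replicate 1. In OPCs Cacng2 ran from 0.50 without ctl replicate 2 to 1.18 without dKO replicate 2, over 4 fits, and it did not pass the filter without dKO replicate 1 or dKO replicate 3. The members Cacng4 and Cacng5 are neighbours on chromosome 11, 80.0 kb apart, and Cacna2d3 lies 318.1 kb from the targeted gene Cacna1d on chromosome 14.

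The partners of the auxiliary subunits were read from lists. Of 10 pore subunit genes, 8 were tested in OPCs, where 1 was higher and 2 were lower at an unadjusted p under 0.05 (6.27% and 5.27% of all genes tested). The lower genes were Cacna1c itself and Cacna1h, a T-type pore gene that needs no beta subunit (482 ± 51.1 normalized counts in ctl and 354 ± 27.2 in dKO; log2 fold change -0.44, edgeR adjusted p = 0.310). The higher one, named after its values were seen, was the T-type gene Cacna1i, with 6.31 ± 4.32 normalized counts in ctl and 17.3 ± 8.64 in dKO. It passed the filter through its dKO libraries, so its direction follows in part from the filter, and without dKO replicate 2 it did not pass. Over the other 5 fits without a library its log2 fold change, 1.47 with all libraries, ran from 1.05 without ctl replicate 3 to 2.01 without ctl replicate 2. Its unadjusted p was no longer under 0.05 without ctl replicate 1 or ctl replicate 3, or with DESeq2. Among the 23 tested channel partners, 1, which is not reported here, was higher and 0 were lower at an unadjusted p under 0.05. Thbs4, a thrombospondin gene of this list, gave a log2 fold change of 0.84 with overlapping groups (edgeR adjusted p = 0.454; unadjusted p under 0.05 only without dKO replicate 1 and with no filter). Of 17 AMPA receptor genes and partners, 2 were higher and 1 was lower. Grip2, an AMPA receptor scaffold gene, was lower with no overlap (-0.62; edgeR adjusted p = 0.337), a call lost without ctl replicate 1, and Shisa9 (1.22; edgeR adjusted p = 0.375) and Gria1 (0.94; edgeR adjusted p = 0.386), the last named after its values were seen, were higher with overlapping groups. Both were highest in dKO replicate 2. Over the fits without single libraries Shisa9 ran from 0.61 to 1.56 and Gria1 from 0.44 to 1.22, each lowest without dKO replicate 2 and highest without ctl replicate 3, and neither had an unadjusted p under 0.05 without ctl replicate 1, ctl replicate 2 or dKO replicate 2. Medians over these 3 lists were -0.13, 0.30 and 0.12 against 0.01 over all genes.

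In neurons 0 of the genes tested in these lists had an unadjusted p under 0.05 with edgeR, out of 7 pore genes, 21 channel partners and 17 AMPA receptor genes and partners. The medians were 0.44, 0.22 and 0.40 against 0.01 over all genes. Those with the smallest p were Cacna1a (0.63) and Cacna1d (0.80) among pore genes, Ahnak (-0.43) and Gem (-0.69) among channel partners, and Gria4 (0.42) and Dlg2 (0.95) among AMPA receptor genes, as log2 fold changes. With single libraries left out, 4 of these were nearest to 0 without dKO replicate 1 and farthest from it without another library, with 0.38 and 0.86 for Cacna1a, 0.35 and 1.197 for Cacna1d, -0.23 and -0.59 for Ahnak and 0.23 and 1.27 for Dlg2. Gem ran from -0.94 without ctl replicate 2 to -0.40 without ctl replicate 3, and Gria4 from 0.33 to 0.52. In some of these fits Gem, Ahnak, Gria4 and Dlg2 had an unadjusted p under 0.05, as did Ahnak and Dlg2 with DESeq2 and Ahnak with Y-linked counts as a term.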

How the data were processed

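The members and all lists were chosen with earlier results of these data known. For OPCs the authors deposited read counts and FPKM per Ensembl gene. Their methods state HISAT2, GRCm38 and featureCounts, whereas the submitters' processing notes name mm39, and only 1.97% of 28720 matched identifiers have GENCODE M21 (GRCm38) coordinates, so OPC positions are given as deposited. For neurons the authors deposited estimated counts, FPKM and TPM for 66298 RefSeq transcripts. The methods describe gene-level counts only, without separating the cell types. How the estimated counts per transcript were made is not given in the sources used here. They were summed per gene and rounded, and FPKM and TPM were summed per gene. Of 17918 neuron genes, 17794 matched a symbol in the RefSeq table, and the others held 0.0441% of counts. The deposited tables also hold the authors' own fold changes and p-values, which were not used. OPC TPM was computed from counts and gene lengths, and within a library TPM keeps the order of FPKM by construction.

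Each cell type was fitted alone with edgeR 4.0.16 (R 4.3.3; quasi-likelihood test, TMM, genotype as the only term) on genes whose normalized counts averaged 10 or more, with Benjamini-Hochberg adjustment over all genes. The standard error of a log2 fold change was its size over the root of the F statistic, with 95% intervals from the t distribution of the fit. Scripts were tested on simulated data. The genes named are the members, the targeted genes, the other auxiliary subunit genes and, in each list, the genes with the 2 smallest p per cell type, 1 of which is not reported here. Transcripts with a GENCODE M21 position were matched to RefSeq windows within 100 bases. Replicate libraries differed by at least 15.9 chi-square units per gene, so none is a copy. With 3 libraries against 3, an exact permutation test cannot give a p under 0.1. Alternatives were DESeq2 1.42.0, its size factors, no filter, the replicate block, each library left out, and, added after seeing the data, the Y-linked fits and all of these for the named genes outside the set.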

Additional observations from a re-analysis of the deposited data

Results flagged for a closer look

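The log2 fold change of Cacnb4 had opposite signs in the cell types, with an edgeR adjusted p of 0.288 in OPCs and 0.557 in neurons. The log2 fold change of dKO against ctl was -0.45 in OPCs, where the dKO libraries all lay under the ctl libraries, and 0.56 in neurons, where they all lay over them. The difference was not tested, since OPC reads were counted per gene and neuron reads estimated per transcript. The neuron 95% confidence interval, -0.01 to 1.14, included 0, and without dKO replicate 1 the neuron value was 0.21.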

How the results depend on the processing

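The OPC count of genes at an adjusted p under 0.05 was 1, and it was 299 with DESeq2, 87 with no filter on low counts, 27 with the replicate block and 1 to 199 with single libraries left out, with 199 without dKO replicate 2. Unadjusted, 2003 OPC genes were under 0.05, and 1106 to 2292 without single libraries, lowest without ctl replicate 2. The OPC members at an unadjusted p under 0.05 were 1, and 3 with no filter, 2 with the replicate block and 1 to 3 without single libraries. Cacnb4 was among them in every OPC setting run, with an adjusted p between 0.0597 (DESeq2) and 0.779 (edgeR without ctl replicate 2). In neurons the adjusted count was 0, and 88 with DESeq2, and the unadjusted count was 1292, and 780 to 1581 without single libraries, lowest without ctl replicate 1. The neuron members at an unadjusted p under 0.05 were 1, and 2 with no filter, 2 with Y-linked counts as a term, 0 with the replicate block, 0 with only libraries low in Y-linked counts, and 0 to 3 without single libraries. Cacng4 was not among them without ctl replicate 1, dKO replicate 1 or dKO replicate 2. Some log2 fold changes turned direction without single libraries, over ranges of -0.25 to 0.10 (Cacnb1), -0.24 to 0.11 (Cacnb2), -0.094 to 0.21 (Cacnb3), -0.19 to 0.35 (Cacna2d2) and -0.16 to 0.20 (Cacng7) in OPCs and -0.12 to 0.15 (Cacna2d1) and -0.11 to 2.02 (Cacng3) in neurons, where Cacna2d1 was also -0.09 with only libraries low in Y-linked counts. The causes were not tested. Whether the replicate numbers pair the samples is not stated in the sources used here. Deviations of same-numbered libraries correlated at -0.11, 0.16 and 0.12 in OPCs and at 0.17, -0.07 and -0.07 in neurons. Differently numbered libraries gave -0.31 to 0.22 in OPCs and -0.15 to 0.21 in neurons. With 3 libraries per group these correlations cannot decide it. Levels per length recomputed from counts were not run for neurons, whose deposited FPKM were used. Depth limits Cacnb2, Cacna2d2 and Cacng7 in neurons, which had at most 26.5 normalized counts in a library.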
